A study of Mus musculus with 2 samples.

Results

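A set of genes of the interferon response and of antigen presentation on major histocompatibility complex (MHC) class I were followed in 3T3-L1 adipocytes. They were chosen by symbol from a written list of 43 genes, and all 43 were found among the 24421 gene symbols measured. 3T3-L1 is an established mouse preadipocyte line that turns into fat cells under a hormone cocktail. The control group was 1 library of 3T3-L1 cells at passages 10 to 13 with no treatment. Its labels call the cells adipocytes and give C57BL/6 as strain background, which was not checked here. The DF group was 1 library of the same line, labels and passages whose medium held DF (DF-GA70 in the sample title), a mixture of several herbs given against obesity, up to harvest. Both received 1 µg/mL insulin, IBMX, which blocks phosphodiesterases, at 0.5 mM, and the steroid dexamethasone at 0.25 µM for 2 days, starting 2 days after confluence, and then insulin alone. Neither the amount of DF nor the harvest day is stated in the labels.

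Each value is a deposited log2 value from 1 library, so no difference has a replicate error and no test between the conditions was possible. A linear value below is 2 to the power of the deposited value, and a fold is the ratio of 2 linear values. Genes count as examined if at least 1 library had them at or above 8.18 (log2), the median of the values above 0. A gene was counted as higher or lower with DF at a 1.5-fold difference. Defining adipocyte markers were present, with Adipoq at 16.08 and 16.32 and Fabp4 at 16.67 and 16.73. All 8 adipocyte markers were examined and 1, Cidec, was higher (14.475 and 15.145). Among all genes examined, 10.2% were higher and 10.9% lower. Of 6 preadipocyte or fibroblast markers, 4 were examined and all 4 were lower with DF. These were Dlk1 (16.55 and 15.10), Pdgfra (10.99 and 9.65), Ly6a (10.69 and 9.10) and Col1a1 (13.95 and 13.29). Linear values summed over all 6 were 115503 in the control and 46588 with DF, most of it Dlk1 (95818 and 35081). Of the 2 not examined, Thy1 was at 7.23 and 7.03 and Cd34 at 0 in both libraries. Macrophage markers, all under 8.18, summed to 35.6 and 67.9 and did not share a direction, with Adgre1, Mrc1 and Fcgr1 at 0 in both. Ptprc went from 4.33 to 2.64 and Csf1r from 0.32 to 0, whereas Cd68 went from 2.83 to 4.88 and Cd14 from 2.83 to 3.41. Itgam, Lyz2 and Cx3cr1 were at 0 in the control and at 2.49, 3.52 and 2.13 with DF. The 5 T and NK cell markers were at 0 in both, and those of dendritic or B cells summed to 28.4 and 0. Of 4 endothelial markers, summing to 89.8 and 11.5, Pecam1 was at 6.49 and 2.83 and Cdh5 at 0 and 2.13, while Kdr and Tek were at 0 in both. The lower endothelial sum thus rests on Pecam1 alone, at values under 8.18. Fewer cells of a type and less RNA per cell cannot be told apart in bulk libraries, and the part of the preadipocyte and endothelial markers in the differences below was not tested.

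Interferons are secreted proteins that warn cells of viruses. Type I interferons act through the receptor chains IFNAR1 and IFNAR2, and interferon gamma through IFNGR1 and IFNGR2. Type I receptors activate a complex with STAT2 and IRF9 that switches on interferon-stimulated genes through a DNA element called ISRE, while interferon gamma acts largely through an element called GAS. Many of the induced proteins block viruses, and others improve the display of peptides: immunoproteasome subunits cut proteins, the TAP transporter carries the peptides into the endoplasmic reticulum, tapasin helps to load them, and class I heavy chains with beta-2-microglobulin present them at the surface. Fat cells respond to interferons and carry class I molecules.

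The start regions of 6 members are shown because they cover genes that were higher, lower, near equal or absent with DF, and because some hold the letters of the elements named above. They come from RefSeq (GRCm38.p6) and run from 250 bases before to 50 after the annotated start, 5′ to 3′ on the gene's strand. Capitals mark ISRE letters (GAAANNGAAA, or TTTCNNTTTC on the other strand) and GAS letters (TTCNNNGAA, which reads alike on both strands). The windows are chr4:156200769-156201068 (minus strand) for Isg15, chr2:122147437-122147736 (plus) for B2m, chr17:34000298-34000597 (minus) for H2-K1, chr7:140955912-140956211 (minus) for Ifitm2, chr7:141010695-141010994 (minus) for Ifitm3 and chr2:62646206-62646505 (minus) for Ifih1.
Isg15: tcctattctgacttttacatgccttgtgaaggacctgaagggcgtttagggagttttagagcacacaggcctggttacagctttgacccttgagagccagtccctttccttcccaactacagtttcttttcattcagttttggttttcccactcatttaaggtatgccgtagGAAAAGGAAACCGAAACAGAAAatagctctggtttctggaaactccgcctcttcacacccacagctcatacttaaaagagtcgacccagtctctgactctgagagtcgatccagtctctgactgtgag
B2m: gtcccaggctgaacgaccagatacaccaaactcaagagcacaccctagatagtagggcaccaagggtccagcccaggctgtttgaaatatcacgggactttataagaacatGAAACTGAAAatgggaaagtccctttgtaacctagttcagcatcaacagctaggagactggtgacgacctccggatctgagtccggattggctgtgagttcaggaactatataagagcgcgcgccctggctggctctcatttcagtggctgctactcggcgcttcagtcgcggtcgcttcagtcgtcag
H2-K1: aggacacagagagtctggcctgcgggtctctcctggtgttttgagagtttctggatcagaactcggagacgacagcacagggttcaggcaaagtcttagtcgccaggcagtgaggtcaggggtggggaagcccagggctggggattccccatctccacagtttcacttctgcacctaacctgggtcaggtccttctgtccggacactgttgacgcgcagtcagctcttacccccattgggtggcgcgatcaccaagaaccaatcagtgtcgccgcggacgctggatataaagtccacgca
Ifitm2: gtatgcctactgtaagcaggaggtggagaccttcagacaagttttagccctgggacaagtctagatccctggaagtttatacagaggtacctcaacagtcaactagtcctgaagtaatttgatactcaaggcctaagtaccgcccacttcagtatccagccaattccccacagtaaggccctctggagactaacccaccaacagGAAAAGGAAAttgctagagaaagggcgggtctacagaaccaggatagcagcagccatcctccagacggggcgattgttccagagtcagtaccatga
Ifitm3: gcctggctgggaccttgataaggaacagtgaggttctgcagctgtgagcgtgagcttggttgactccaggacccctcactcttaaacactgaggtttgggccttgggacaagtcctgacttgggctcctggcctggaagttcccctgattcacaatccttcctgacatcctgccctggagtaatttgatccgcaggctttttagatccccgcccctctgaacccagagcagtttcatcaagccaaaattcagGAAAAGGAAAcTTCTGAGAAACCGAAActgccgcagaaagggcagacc
Ifih1: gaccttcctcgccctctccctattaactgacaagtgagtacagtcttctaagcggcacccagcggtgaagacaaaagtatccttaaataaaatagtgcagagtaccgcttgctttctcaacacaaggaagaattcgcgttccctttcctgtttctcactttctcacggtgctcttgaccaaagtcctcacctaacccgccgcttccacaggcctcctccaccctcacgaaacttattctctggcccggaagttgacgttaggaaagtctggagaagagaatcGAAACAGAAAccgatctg
In the Isg15 window, 3 ISRE matches overlap in 1 run of capitals. In that of Ifitm3, a GAS match lies between 2 ISRE matches and overlaps the second of them. The H2-K1 window holds neither string. Only these exact letters were searched, so a variant form of either element would be missed, and a window without capitals may still hold one.

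At least 1 ISRE match was found for 16 of the 38 members with a window (42.1%). The share was 3.91% among the 17224 genes that are both in the files and in the window table. GAS letters were found for 13 members (34.2%), against 9.27% of those genes. Letters found in a window are a description and no sign of binding. Of the 13 with ISRE letters above 0 in both libraries, 8 were higher with DF and 5 lower, at any size, and their median was 0.04 log2 units. Another 2 with ISRE letters, Ifih1 and Gbp3, were listed at 0 with DF only, and 5 of the 16 were examined. Among the 18 such members without ISRE letters, 8 were higher and 10 were lower, and the median was -0.07. Oasl2, without ISRE letters, was listed at 0 with DF only, and 11 of the 22 were examined. Over all 11744 genes above 0 in both libraries, 6138 were higher and 5575 lower.

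The interferon and antigen presentation genes did not move one way with DF. The type I receptor genes Ifnar1 and Ifnar2 and the class I gene H2-K1 were higher, while the transporter gene Tap2 and the interferon-stimulated genes Ifi35 and Ifitm3 were lower. Of 43 members, 18 were examined, 3 of them higher (16.7%) and 3 lower (16.7%). Over all 6761 genes examined, 10.2% were higher and 10.9% lower, so 3 members in each direction lie close to the background. Ifi35 and Ifitm3 reached the floor in the control only, the library where they were higher. With the floor reached in both libraries, 3 of 15 members were higher and 1 (Tap2) was lower, beside 7.64% and 8.13% of 5927 genes. At a 2-fold limit 1 member (H2-K1) was higher and 2 were lower, against 2.56% and 3.21% of all genes examined, and these 2 are again Ifi35 and Ifitm3. The median over the 34 members above 0 in both libraries was 0.03 log2 units, beside 0.04 over all 11744 such genes. The other 25 members lay under the level floor in both libraries. Of these, 16 were above 0 in both, 4 were above 0 in the control and listed at 0 with DF, and 5 were listed at 0 in both.

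**Figure D1:**
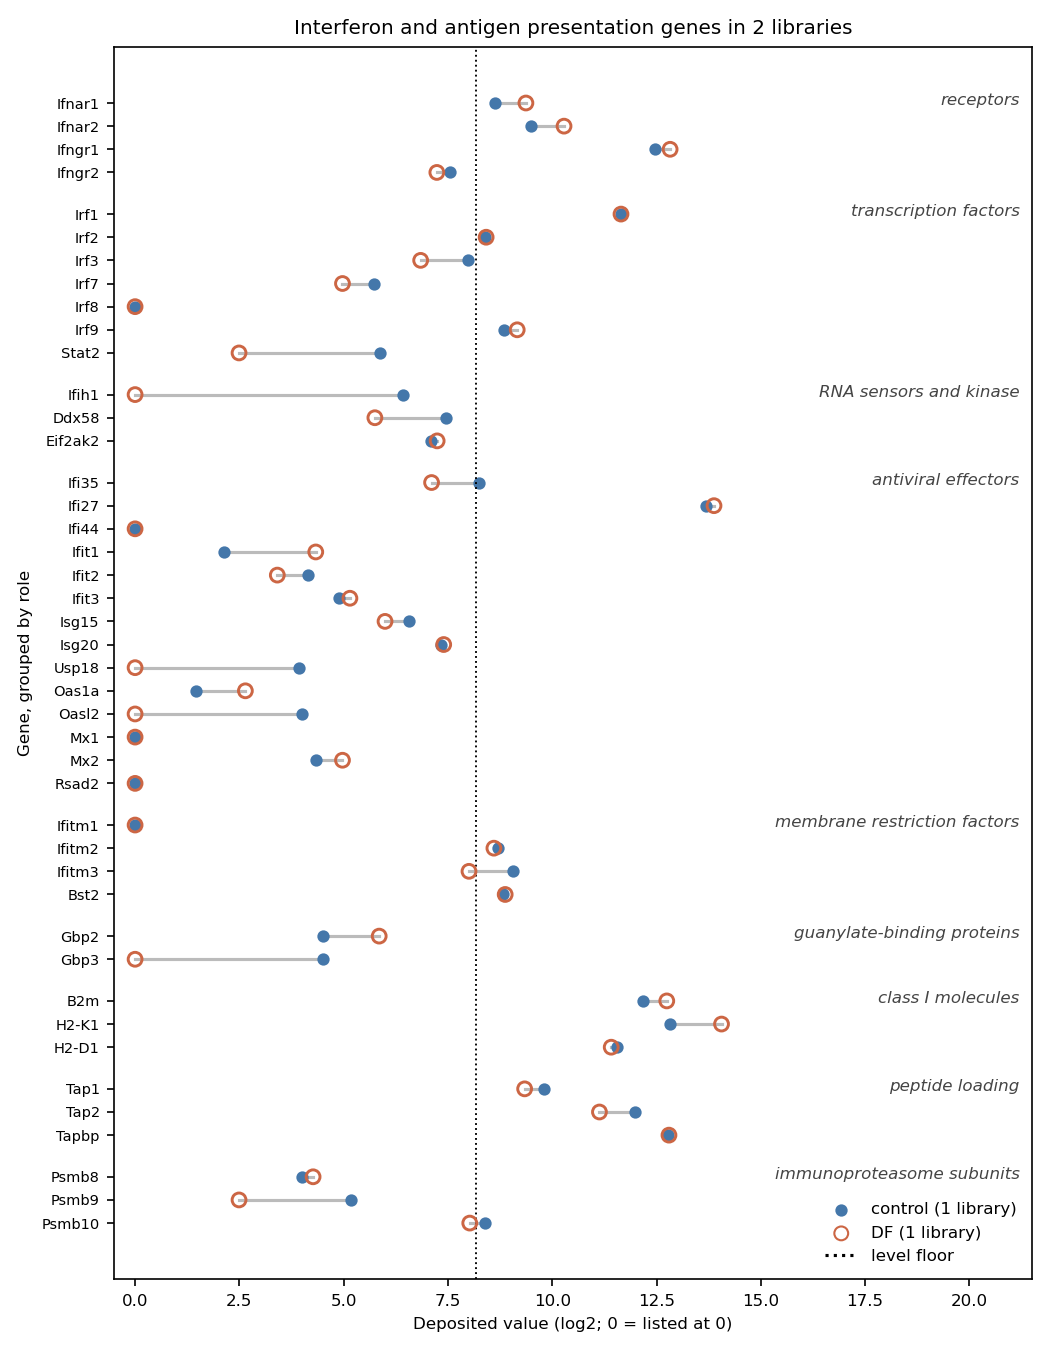
Deposited log2 value (horizontal axis) of each of the 43 members, grouped by role, in the control library (filled) and the DF library (open), with the level floor of 8.18 as a dotted line. H2-K1 moved from 12.82 to 14.06, while Ifih1, Usp18, Oasl2 and Gbp3 were above 0 in the control only.

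Of 4 receptor genes 3 were examined, and both chains of the type I receptor were higher with DF. Ifnar1, the first chain, had a value of 8.62 in the control and 9.37 with DF, or 394 and 661 on the linear scale, 1.68-fold higher. Ifnar2, the chain that binds interferon with high affinity, had 9.50 and 10.28 (724 and 1245 linear), 1.72-fold higher. Among genes with a mean level of 8 to 9, where Ifnar1 lies, 13.5% were higher by 1.5-fold, and for 9 to 10, where Ifnar2 lies, the share was 9.15%. Ifngr1, the ligand-binding chain for interferon gamma, stood at 12.45 and 12.83, 1.30-fold higher and within the limit. Its partner chain Ifngr2 stood at 7.56 and 7.23, under the floor. Ifnar2 (chr16:91372783-91405589), Ifnar1 (chr16:91485238-91507441) and Ifngr2 (chr16:91547072-91565623) lie in this order on the plus strand of chromosome 16. Their differences were 0.78, 0.75 and -0.32, and any genes between them were not looked at. Ifnar2 shares exons with the predicted gene Gm21970, so its reads are less certain.

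Of the 7 transcription factor genes, 3 were examined and none of these 3 differed by 1.5-fold. Irf1, which is induced by interferon gamma and drives class I genes, stood at 11.65 in both libraries. Irf2, its antagonist, was at 8.40 and 8.42, and Irf9, the partner of STAT2 in binding DNA, was at 8.83 and 9.16. Irf1, Irf2 and Irf9 thus had differences of -0.01, 0.02 and 0.33 log2 units. Irf3, the factor that starts interferon production after virus sensing, came just short of the floor in the control, at 7.97, and was at 6.85 with DF, 2.19-fold lower. Irf7, which amplifies interferon production, was at 5.72 and 4.97. Stat2 stood at 5.87 in control cells and 2.49 with DF, which is the second lowest value above 0 in the DF library and is shared by 118 genes. Irf8, a factor of blood cells, was listed at 0 in both. Irf1 shares exon positions with the predicted gene Gm17334, Irf3 with Bcl2l12 and Irf7 with Phrf1, each on the other strand, and Irf9 with Rnf31 on the same strand. The labels do not say if counting used the strand.

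Both RNA sensor genes of the RIG-I family on the list were lower with DF, and both lay under the floor. Ddx58, which encodes RIG-I, stood at 7.46 in control cells and 5.75 with DF (175 and 53.8 linear), 3.27-fold lower. Among all genes under the floor with a mean level of 5 to 8, 9.74% were lower by 2-fold. Ifih1, which encodes the sensor MDA5, was at 6.42 in the control and was listed at 0 with DF. Of all genes with a control value of 6 to 7, 2.04% (25 of 1224) were listed at 0 with DF. The third gene of this sensor family, Dhx58, was at 2.13 and 0; it was named after its values were seen. Eif2ak2, the kinase PKR that halts translation on double-stranded RNA, differed little, at 7.10 and 7.24.

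Only 2 of the 14 antiviral effector genes reached the floor. Ifi35, an interferon-induced leucine zipper protein, stood at 8.23 in control cells and 7.11 with DF (301 and 138 linear), 2.18-fold lower, so it was examined through its control value only. Ifi27, a mitochondrial interferon-induced protein, was abundant in both libraries, at 13.69 and 13.88. Ifi35 lies at chr11:101448407-101458698 on the plus strand. Isg15, the ubiquitin-like modifier, was at 6.57 and 5.99, a difference of -0.58 log2 units that falls just short of 1.5-fold. Isg20, an exonuclease, was at 7.32 and 7.40. Ifit1, Ifit2 and Ifit3, which bind foreign RNA, went from 2.13 to 4.33, from 4.15 to 3.41 and from 4.88 to 5.15. Mx2, a dynamin-like GTPase, was at 4.33 and 4.97, and Oas1a, an oligoadenylate synthetase, at 1.46 and 2.64. Usp18, which removes ISG15, and Oasl2, an oligoadenylate synthetase relative, were at 3.92 and 4.01 in the control and listed at 0 with DF. Ifi44, Mx1 and Rsad2, the last encoding viperin, were listed at 0 in both. At the 3′ end, Oas1a shares 46.0% of its 75-base stretches with Oas1g and Ifit3 shares 9.86% with Ifit3b, so their reads are less certain.

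Of the 3 membrane restriction factor genes examined, 1 was lower with DF and 2 were within the limit. Ifitm3, which blocks virus entry from endosomes, stood at 9.05 in control cells and 8.004 with DF (530 and 257 linear), 2.07-fold lower, so it was examined through its control value only. Ifitm2, nearby on chromosome 7, differed by -0.10 log2 units (416 and 388 linear), and Ifitm1, which lies between Ifitm2 and Ifitm3, was listed at 0 in both. Bst2, or tetherin, which holds virus particles at the cell surface, was at 8.83 and 8.87. The Ifitm2 and Ifitm3 windows printed above both hold ISRE letters. The 3′ ends of these genes differ in how unique they are: 32.6% of the 75-base stretches in the last 500 bases of the longest Ifitm2 transcript also occur in other annotated genes, all of them predicted ones, against 0.939% for Ifitm3. The guanylate-binding protein genes Gbp2 and Gbp3, whose products attack vacuoles of pathogens, both stood at 4.52 in the control. With DF, Gbp2 was at 5.85 and Gbp3 was listed at 0.

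The class I genes showed the largest difference among the members examined. H2-K1, a classical class I heavy chain, stood at 12.82 in control cells and 14.06 with DF (7221 and 17049 linear), 2.36-fold higher. Of 815 genes whose mean level was 12 or more, 8 (0.982%) were higher by 2-fold, and H2-K1 was 1 of them. H2-D1, the other classical heavy chain, was at 11.56 and 11.41 (3012 and 2728 linear), 1.10-fold lower. B2m, the shared light chain, was at 12.18 and 12.75 (4632 and 6866 linear), 1.48-fold higher and just short of the 1.5-fold limit. H2-K1 lies at chr17:33996017-34000347 on the minus strand and H2-D1 at chr17:35262730-35267499 on the plus strand. None of the 75-base stretches at the 3′ end of the H2-K1 transcript occurs in another annotated gene, and 0.939% of those of H2-D1 do. Class I heavy chain genes vary between mouse strains, and the labels do not say how reads that differ from the reference were treated. The 75-base stretches are those of the reference, and whether this line carries the same class I alleles was not tested. The H2-K1 value with DF lies among the highest 140, which are the same numbers in both libraries, so it gives a rank.

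Peptide loading genes were lower or near equal. Tap2, 1 chain of the peptide transporter, stood at 11.98 in control cells and 11.13 with DF (4029 and 2243 linear), 1.80-fold lower. Lower values by 1.5-fold were found for 7.20% of 2193 genes whose mean level lay between 10 and 12. Tap1, the other chain, was at 9.79 and 9.34, 1.37-fold lower, and Tapbp, which encodes tapasin and shares exon positions with Zbtb22, was at 12.76 and 12.80. Of the immunoproteasome subunit genes, Psmb10 was at 8.38 and 8.02 and Psmb8 at 4.01 and 4.27. Psmb9 stood at 5.18 in control cells and 2.49 with DF, the same low value as Stat2. Tap1 and Psmb9 are transcribed in opposite directions from 1 start region: their windows, each 300 bases long, share 275 bases, and their exons overlap. Tap2, Tap1, Psmb8 and Psmb9 lie together in the MHC on chromosome 17, where H2-K1, H2-D1 and Tapbp also lie. Within this region H2-K1 was higher and Tap2 lower, so the members there did not all share a direction. Among the genes lying together, Tap2, Tap1 and Psmb9 differed by -0.84, -0.45 and -2.69 log2 units, and Psmb8 by 0.26. Psmb8 and Psmb9 lay under the floor.

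**Figure D2:**
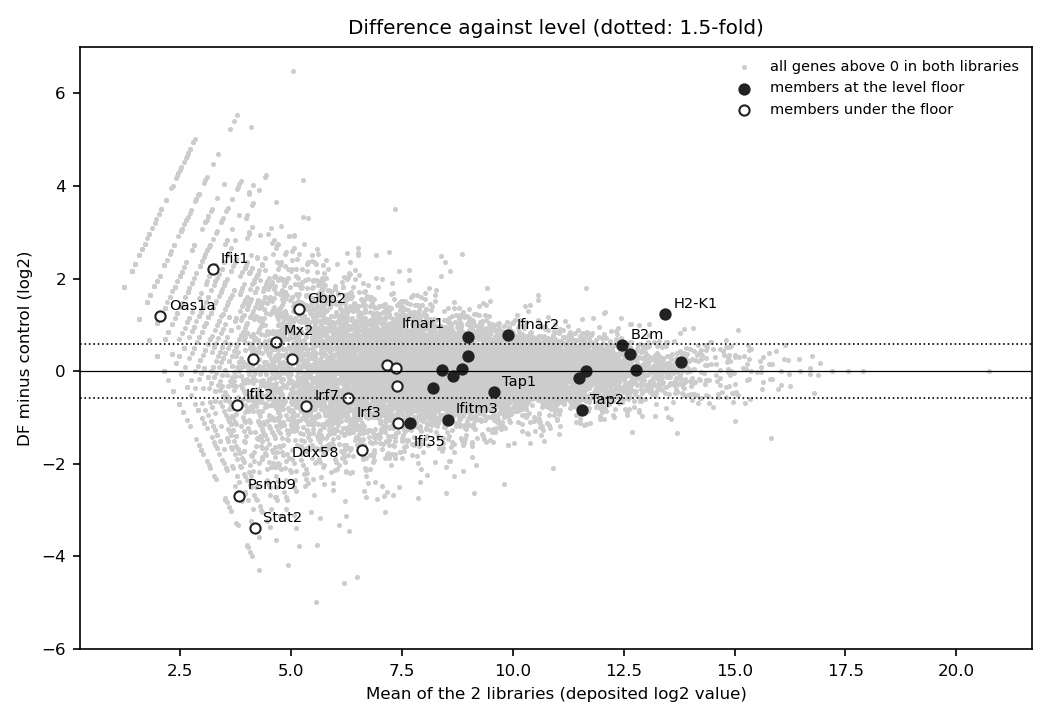
Difference between the DF and control values (vertical axis, log2) against the mean of both (horizontal axis, log2), with members at the level floor as filled points, members under it as open points and all other genes in grey. H2-K1 at 1.24 stands above most genes of its level, while Stat2 at -3.38 and Psmb9 at -2.69 lie low in the part of the plot where all genes scatter widely.

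Values under the floor have little resolution. The lowest value above 0 was 0.32 in the control library, shared by 179 genes, and 2.13 in the DF library, shared by 185 genes. The central 95% of differences ran from -2.28 to 4.36 for genes with a mean level of 2 to 4 and from -0.85 to 0.77 for a mean level of 10 to 12. The difference of Psmb9 (-2.69, mean level between 2 and 4) lay outside that range for its level. So did that of Stat2 (-3.38), since the range was -2.61 to 2.52 for a mean level of 4 to 6, whereas that of Ddx58 (-1.71) lay just inside the range of -1.72 to 1.48 for 6 to 8. With a pseudocount of 32 on the linear scale, the differences shrank to -1.27 for Stat2, -0.86 for Psmb9, 0.52 for Ifit1 and 0.71 for Gbp2. Among the 16 members under the floor and above 0 in both, 8 were higher and 8 lower. By 1.5-fold, 4 were higher and 6 lower (37.5%), against 29.3% and 22.7% of all 4984 such genes. Among the 38 members above 0 in the control, 4 were listed at 0 with DF (10.5%), against 9.75% of all genes, and for control values of 3.5 to 5 the share of all genes was 26.7%.

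An order number, counted upward through the distinct values of a library, puts low genes on a scale of ranks. It is not corrected for depth. Oas1a held the third lowest value in both libraries, although its deposited values differed by 1.18 log2 units. Psmb9 moved from order number 40 to 2, and Stat2 from 64 to 2. Ddx58 moved from 190 to 52 and Irf3 from 266 to 111, whereas Gbp2 moved from 25 to 56 and Ifit1 from 5 to 19. Eif2ak2 (150 and 146) and Isg20 (174 and 164) were slightly lower by order number and slightly higher by value.

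**Figure D3:**
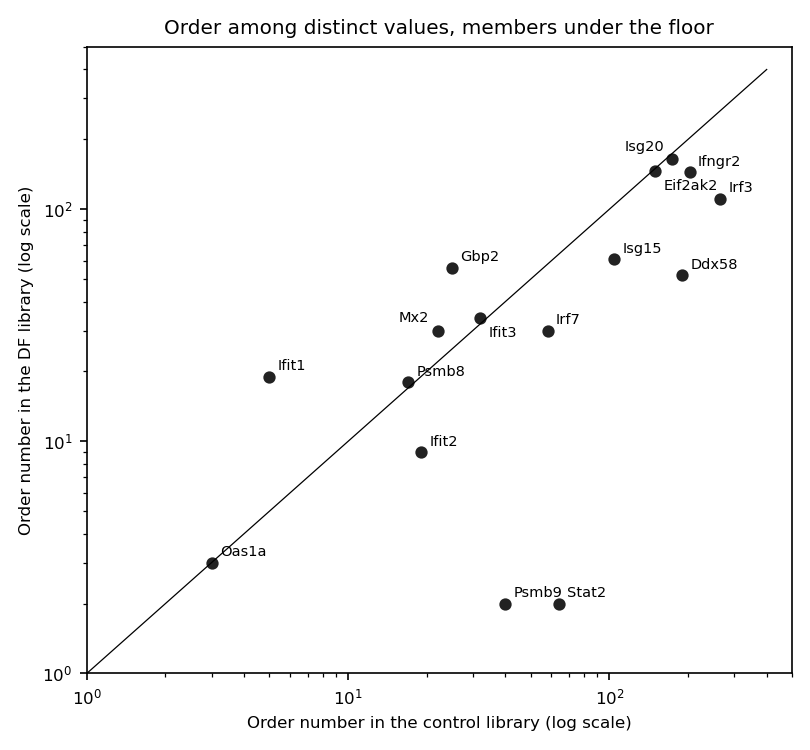
Order number of the 16 members under the level floor and above 0 in both libraries, control on the horizontal and DF on the vertical axis (log scales), with a line of equal numbers. Oas1a lies on the line at 3 and 3, Stat2 and Psmb9 lie far below it at 2 with DF, and Ifit1 and Gbp2 lie above it.

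The other genes of the pathway, 137 measured of 138 listed, had more members higher than lower at the floor. Of the 38 examined, 6 were higher (15.8%) and 1 was lower (2.63%), beside the 10.2% and 10.9% of all genes. With the floor reached in both libraries, 5 of 37 were higher and 1 was lower, beside 7.64% and 8.13% of all genes. Their median was 0.10 over those examined, beside 0.01 for all genes examined. All 10 interferon genes of the list, among them Ifnb1 and Ifng, were at 0 in both libraries.

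Receptor signalling held the largest of these differences. Ptpn1, a phosphatase that acts on JAK2 and TYK2, was at 8.61 and 9.60, 1.99-fold higher, and Jak1, the kinase bound to IFNAR2 and IFNGR1, at 10.91 and 11.58, 1.59-fold higher. Stat3 and Ptpn11, with the highest mean values of that list, were 1.22-fold and 1.11-fold higher. In nucleic acid sensing, Tbk1, the kinase that activates IRF3, was at 7.76 and 8.48, 1.65-fold higher, so it was examined through its DF value only. The 5 other examined genes of that list were within the limit. The highest mean values among the examined were those of Trim25, which modifies RIG-I, at 9.86 and 10.25, and Mavs, the adaptor of RIG-I and MDA5, at 9.64 and 10.07.

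Among 8 other interferon-stimulated genes examined, Trafd1, a regulator of innate signalling, was higher by 0.59 log2 units (11.04 to 11.63). That call is lost when differences are centred on the median of all genes examined, and with a pseudocount of 32 on the linear scale. Lgals3bp, a secreted glycoprotein, was 1.51-fold lower (9.18 to 8.58). Its call is lost after centring on the running median by level and with a pseudocount of 32 on the linear scale. Shisa5, which had the highest mean value of these 8 genes, was at 13.69 and 13.77. Of the other interferon-regulatory factor genes, Irf2bp2 was at 11.82 and 11.30 and Irf2bp1 at 9.87 and 9.61. Of the 7 genes of the standard proteasome and its activators, Psmb5, the standard counterpart of PSMB8, was at 11.54 and 12.21, 1.60-fold higher. Psme3, an activator subunit, was 1.57-fold higher (9.02 to 9.68), whereas Pomp, the assembly factor, was at 11.55 and 11.32. The interferon-inducible activator subunits Psme1 and Psme2, given outside the rule, were at 9.13 and 9.12 and at 9.32 and 9.39. Canx and Calr, endoplasmic chaperones that assist class I folding, were at 13.80 and 13.79 and at 13.33 and 13.38. In the class II list, Ctsl, a lysosomal protease, was at 11.99 and 12.38 and H2-DMb1 at 8.75 and 8.93, while the class II chain genes H2-Aa, H2-Ab1 and H2-Eb1 were listed at 0 in both.

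**Figure D4:**
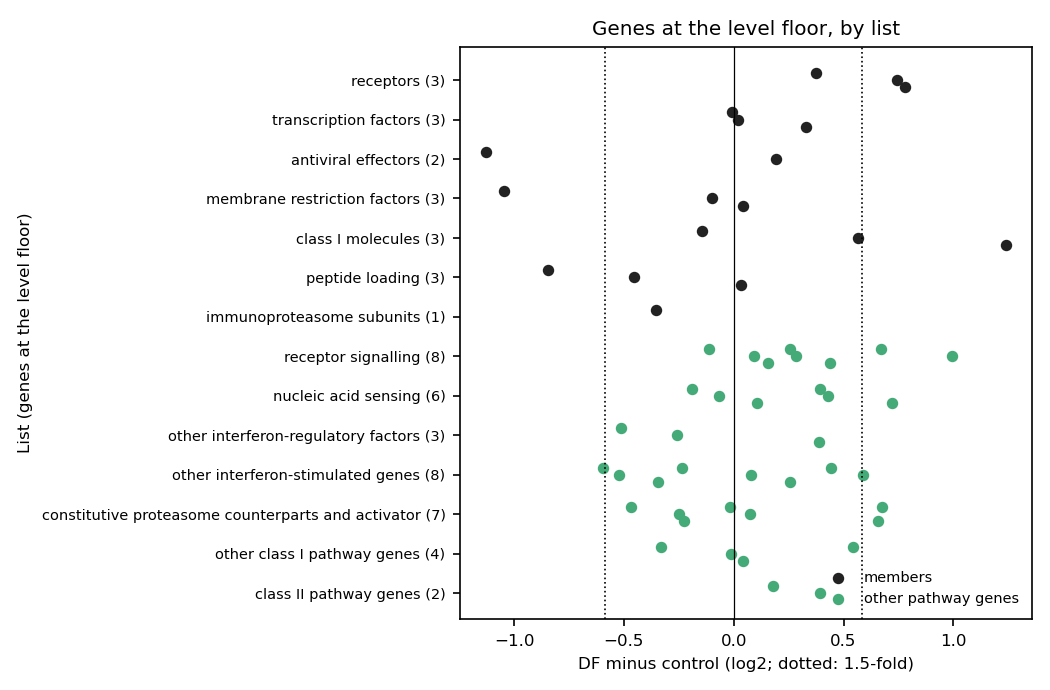
Difference between the DF and control values (horizontal axis, log2) of each gene at the level floor, by list, with members in black and other pathway genes in green; dotted lines mark 1.5-fold. The class I molecules spread from -0.14 to 1.24 and peptide loading from -0.84 to 0.03, and receptor signalling reaches 0.99.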

How the data were processed

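Messenger RNA 3′ ends were sequenced (single 75 nt reads, from 500 ng of total RNA) in 1 control and 1 DF library. Per the submitters' processing notes, the authors used Bowtie2, edgeR and the mm10 build, whose roles and versions are not stated. The counter, annotation, strand setting and normalization were not given in the sources used here. Each deposited file holds log2 values, 1 per gene symbol. The highest 140 sorted values are identical in both files, which a normalization to 1 common distribution would give. Such a step removes differences in total output. Depth is unknown, so no counting interval was computed, and values are not divided by transcript length.

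Differences were computed as DF minus control with no pseudocount (Python 3.11.15, pandas 2.3.3, numpy 2.4.6). The counting step was run on simulated data with less scatter than these libraries and large shifts in genes well above the floor. That run checks the code only and says nothing on calls near the fold limit or the floor. With 1 library a group, no p-value is given. The members and lists were chosen with earlier results of these data known. Named genes were every member, and among other pathway genes those examined with a 1.5-fold difference and the 2 with the highest mean value in each list, with exceptions stated. Positions and exon overlaps came from GENCODE vM21 (GRCm38, the assembly of mm10), where all 43 members matched. A start region was found for 38 members in the RefSeq table. A shared 3′ end was counted as 75-base stretches of the last 500 bases of the longest coding transcript that occur in transcripts of another gene, on either strand. Alternatives covered the floor, the fold limit, centring, a pseudocount and scaling.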

Additional observations from a re-analysis of the deposited data

How the results depend on the processing

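No paired analysis was possible because each group holds 1 library, and for the same reason no library could be left out. For the counts of 3 members higher and 3 lower, 6 other pathway genes higher and 1 lower, the floor mattered most. With the floor reached in both libraries, 3 members were higher and 1 (Tap2) lower, and the median difference was 0.042 over 15 members. At that setting 5 other pathway genes were higher (Tbk1 lost), beside 7.64% of all genes higher and 8.13% lower. With no floor, 7 members were higher and 9 lower, and 21 other pathway genes were higher and 11 lower, while 18.3% of all genes were higher and 15.9% lower. With a floor of 10 (log2), 2 members were higher and 1 was lower, the median was 0.19 over 9 members, and 3 other pathway genes were higher and 0 lower, beside 7.54% and 8.65% of all genes. At a 2-fold limit, 1 member was higher, and 0 other pathway genes were higher and 0 lower. Centring on the median of all genes examined (0.01) gave a median of 0.014 over the members and 5 other pathway genes higher (Trafd1 lost). Centring on the running median of 100 genes on either side in level gave a median of -0.017. At that setting 4 members were higher (B2m joined) and 3 lower, and 5 other pathway genes were higher and 0 lower. The shares of all genes were 9.7% and 11.5%. With a pseudocount of 32 on the linear scale, 5 other pathway genes were higher (Trafd1 lost) and 0 lower, beside 9.3% and 9.95% of all genes. Without 11 members whose exons or 3′ end are shared with another gene, an alternative added after seeing the data, 2 were higher and 3 lower, and the median was 0.042. The difference of Oas1a, 1.18 as deposited, was -0.65 after centring on the running median and 0.00 by order number, also added after seeing the data. The unknown depth and the wide scatter under the floor limit every statement on low members such as Stat2, Ifih1 and Psmb9.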

Other observations

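The immunity-related GTPase genes, which interferon gamma induces in many mouse cells, all lay under the level floor and were named after their values were seen. Irgm2 went from 3.60 to 6.54, moving from order number 13 to 90 among the distinct values. Iigp1 was at 3.73 and 5.69, from order number 14 to 50. Igtp was at 3.32 and 3.60 and held order number 11 in both libraries. Irgm1 and Ifi47 were listed at 0 in the control and stood at 3.07 and 4.48 with DF. The guanylate-binding protein genes outside the member list did not share a direction. Gbp6 was at 6.39 and 4.27, Gbp7 at 6.97 and 5.63, Gbp4 was listed at 0 in the control and stood at 3.52 with DF, and Gbp5 and Gbp9 were listed at 0 in both. For all genes with a mean level of 4 to 6, the central 95% of differences ran from -2.61 to 2.52, so that of Irgm2 (2.94) lay outside this range and that of Iigp1 (1.97) inside it.

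Erap1, which trims peptides for class I molecules, went from 5.75 to 7.04, 2.46-fold higher with DF, with order numbers of 59 and 126. Tlr4, the lipopolysaccharide receptor of fat cells and macrophages, was at 6.80 and 3.41, with order numbers of 123 and 9. Both lay under the floor and were named after their values were seen.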
